A study of Arabidopsis thaliana with 12 samples.

Results

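LHCB4.1, PSAN, PSBW and RCA are 4 nuclear genes of Arabidopsis thaliana whose products work in the chloroplast, and they were chosen by the gene symbols that the platform annotation gives to the probe sets of the expression table. Each of the 4 genes had 1 probe set, annotated to that gene alone, so 4 of 22746 tested probe sets are described. They are LHCB4.1 (AT5G01530, probe set 251082_at), PSAN (AT5G64040, 247320_at), PSBW (AT2G30570, 267526_at) and RCA (AT2G39730, 245061_at).

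Leaf RNA was hybridised to 12 Affymetrix ATH1 arrays, 3 in each of 4 groups: des1 given Na2S, wild type given Na2S, des1 given water and wild type given water. The des1 plants carry the des1-1 allele, a single insertion line (SALK_103855) of DES1, a cytosolic enzyme that degrades L-cysteine and releases sulfide, and both genotypes have the Col-0 background. Plants grew in soil for 20 days in long days and were then irrigated for 10 days with water or with Na2S, given as 200 mM in the labels, and leaves were taken from plants of 30 days. The submitters call the replicates biological. The series has no second allele and no sodium control, so the genotype cannot be told apart from other changes in this line, nor sulfide from sodium. DES1 transcript was not analysed here. The labels give no hour of harvest. In leaf RNA, fewer cells of a type and less of a transcript per cell cannot be told apart.

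Photosynthesis begins when antenna proteins that bind chlorophyll pass light energy to photosystem II, which splits water, and to photosystem I, which reduces ferredoxin. The ATP and NADPH so made drive the Calvin-Benson cycle, in which Rubisco fixes carbon dioxide. LHCB4.1 encodes an isoform of CP29, a minor antenna protein that links the mobile antenna to the photosystem II core. PSBW encodes a small membrane subunit of photosystem II that stabilises its complexes with the antenna. PSAN encodes a lumenal subunit of photosystem I that assists electron donation by plastocyanin. RCA encodes Rubisco activase, an ATPase that frees Rubisco of inhibitory sugar phosphates.

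All values are log2 expression values from robust multi-array average (RMA), so a difference of 1 is a 2-fold change. Tests used limma across all 22746 probe sets with Benjamini-Hochberg adjustment, and a gene is said to have risen or fallen where its adjusted p was below 0.05. Intervals are 95% intervals of a single difference, not adjusted for the number of tests. The array medians lay between 5.71 and 5.80, and 3 arrays in each group limit how precise the values are. All 4 probe sets were among the brightest on each array: at most 0.840% of probe sets were brighter than that of PSBW, the dimmest of the 4. This is brightness of probes and not a ranking of transcript levels.

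Under water, the 3 photosystem genes were lower in des1 than in wild type and RCA was higher. LHCB4.1, the CP29 antenna gene, had log2 values of 13.27, 13.35 and 13.43 in untreated des1, against 13.94, 14.12 and 13.90 in untreated wild type. The groups did not overlap, and LHCB4.1 fell 1.55-fold (a log2 difference of -0.64 ± 0.10, SE, with 3 arrays a group; limma adjusted p = 3.38e-05). PSAN, the photosystem I gene, had 13.28, 13.27 and 13.12 in untreated des1, against 13.60, 13.72 and 13.81 in untreated wild type. These values did not overlap either, and the fall was 1.40-fold (-0.49 ± 0.10, limma adjusted p = 0.000819).

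PSBW, the photosystem II subunit, had 12.54, 12.34 and 12.42 in untreated des1, against 12.72, 12.82 and 12.75 in untreated wild type. It fell 1.26-fold (-0.33 ± 0.11, limma adjusted p = 0.0154), the smallest of the 3 falls. That call was lost without replicate 2 of untreated des1, where the difference was -0.28 (limma adjusted p = 0.0716).

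RCA, the Rubisco activase gene, had 14.55, 14.52 and 14.54 in untreated des1, against 14.26, 14.16 and 14.22 in untreated wild type. It rose 1.25-fold (0.32 ± 0.09, limma adjusted p = 0.006), again with no overlap. The RCA probe set was the brightest of all tested probe sets on 3 of 3 arrays of untreated des1, and it stood 0.18 to 0.29 below the brightest on those of untreated wild type. Whether the upper end of the scale limited the size of this difference was not tested.

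Thus 3 members fell, where 22.6% of all tested probe sets did so, and 1 rose, where 22.0% did. In either direction 44.7% of all tested probe sets were called, and their median absolute difference was 0.69, above that of any of the 4 genes.

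**Figure D1:**
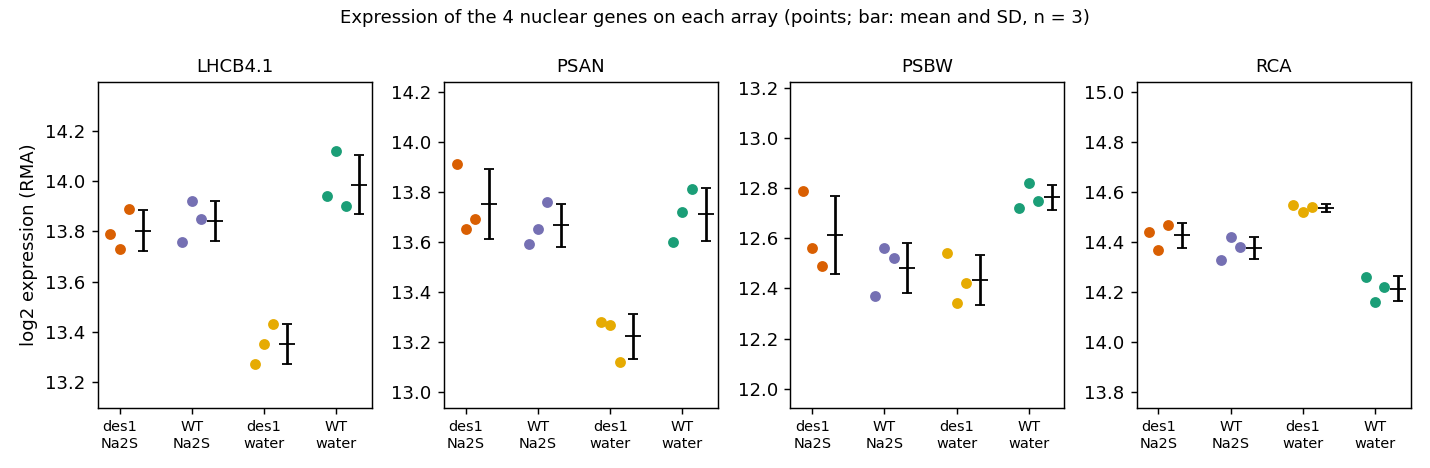
Log2 expression (y axis, RMA, a span of 1.3 in each panel) of the 4 genes on each of the 12 arrays, by group (x axis). Points are single arrays, and the black bar gives the mean ± SD of 3 arrays. Untreated des1 is the lowest group for LHCB4.1 (13.35), PSAN (13.22) and PSBW (12.43) and the highest for RCA (14.54).

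Between the genotypes under Na2S, all 4 genes had overlapping values. LHCB4.1 had 13.79, 13.73 and 13.89 in treated des1, against 13.76, 13.92 and 13.85 in treated wild type, and the difference of -0.04 had an interval from -0.25 to 0.17. PSAN had 13.91, 13.65 and 13.69 in treated des1, against 13.59, 13.65 and 13.76 in treated wild type (0.08, interval -0.14 to 0.30). These intervals exclude falls of the size measured under water for both genes.

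PSBW had 12.79, 12.56 and 12.49 in treated des1, against 12.37, 12.56 and 12.52 in treated wild type (0.13, interval -0.09 to 0.35). RCA had 14.44, 14.37 and 14.47 in treated des1, against 14.33, 14.42 and 14.38 in treated wild type (0.05, interval -0.14 to 0.24). With limma 0 of 4 genes passed, with adjusted p between 0.692 for PSBW and 0.922 for LHCB4.1. An unadjusted p below 0.05 was found for 0 of the 4, beside 2586 of the 22746 tested probe sets. Of all tested probe sets 1.40% were called here, 318 in number, and that count lay between 186 and 207 when any 1 of 5 of the 6 treated arrays was left out, all but wild type replicate 3.

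The change of the genotype difference with the irrigation was tested directly, as the difference under Na2S minus that under water. It passed for all 3 photosystem genes, LHCB4.1 (0.60 ± 0.14 SE, limma adjusted p = 0.00238), PSAN (0.57 ± 0.15, adjusted p = 0.0049) and PSBW (0.46 ± 0.15, adjusted p = 0.0204). RCA leaned the other way and did not pass (-0.27 ± 0.13, adjusted p = 0.104; interval -0.54 to -0.01). The PSBW call was lost without replicate 2 of untreated des1 (adjusted p = 0.0573) or replicate 1 of treated des1 (adjusted p = 0.0662). Of all tested probe sets 37.7% were called in this comparison, and 18.6% in the positive direction that the 3 genes took.

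In des1, Na2S went with higher LHCB4.1 and PSAN. LHCB4.1 rose 1.37-fold with Na2S (0.45 ± 0.10, limma adjusted p = 0.00135), and its 3 treated values all lay above the 3 untreated ones. PSAN rose 1.44-fold (0.53 ± 0.10, adjusted p = 0.000554), also without overlap. For PSBW the groups overlapped (0.18, interval -0.04 to 0.40, adjusted p = 0.209). RCA was lower on each treated array than on each untreated one, but its difference of -0.11 did not pass (interval -0.30 to 0.08, adjusted p = 0.386). The 2 genes that rose stand beside 17.5% of all tested probe sets that rose, 19.6% that fell and 37.1% called in either direction.

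In wild type, 0 of 4 genes passed limma when Na2S was set against water. PSBW, 1 of the 4, had an unadjusted p below 0.05, as had 8799 of the 22746 tested probe sets. PSBW was lower on each of the 3 treated arrays than on each untreated one, with a difference of -0.28 (interval -0.50 to -0.06, limma adjusted p = 0.0533). It passed in 3 of the alternative settings, among them a repeated quantile normalization (-0.37, adjusted p = 0.00833), and without replicate 1 of untreated or of treated des1. RCA was higher on each treated array than on each untreated one and did not pass (0.16, interval -0.03 to 0.35, adjusted p = 0.194), except with a trended robust variance (adjusted p = 0.0441). LHCB4.1 (-0.14, interval -0.35 to 0.07) and PSAN (-0.04, interval -0.26 to 0.18) had overlapping groups. Of all tested probe sets 30.4% were called in this comparison.

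Treated des1 against untreated wild type shares its arrays with the comparisons above. With limma 0 of 4 genes passed, where 30.3% of all tested probe sets were called, 14.2% as higher and 16.1% as lower. RCA, 1 of the 4, had an unadjusted p below 0.05, as had 8704 of the 22746 tested probe sets. The differences were -0.18 for LHCB4.1 (interval -0.39 to 0.03, with no overlap of the groups), 0.04 for PSAN (-0.18 to 0.26), -0.15 for PSBW (-0.37 to 0.07) and 0.21 for RCA (0.02 to 0.40, limma adjusted p = 0.0846). RCA passed here with arrays centred on their medians (0.28, adjusted p = 0.0257), with array weights (adjusted p = 0.0312) and with a trended robust variance (adjusted p = 0.00836).

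**Figure D2:**
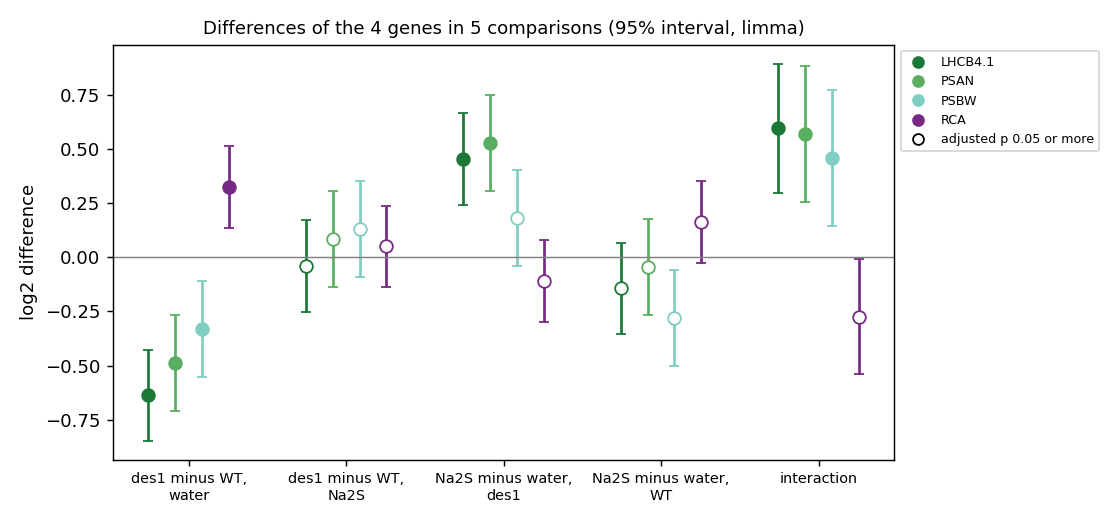
Log2 differences (y axis) of the 4 genes in 5 comparisons (x axis), with 95% limma intervals. Filled points passed at an adjusted p below 0.05 and open points did not. All 4 genes passed between the genotypes under water and 0 of 4 under Na2S, and the interaction passed for LHCB4.1, PSAN and PSBW.

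The order of the group means differed among the 4 genes. For LHCB4.1 untreated des1 averaged 13.35 ± 0.08 (SD, n = 3), below treated des1 (13.80 ± 0.08), treated wild type (13.84 ± 0.08) and untreated wild type (13.99 ± 0.12), and no difference among these upper 3 groups passed limma. PSAN had the same lowest group, at 13.22 ± 0.09, with the other 3 groups between 13.67 and 13.75. PSBW had untreated wild type at the top, at 12.76 ± 0.05, and the other 3 groups between 12.43 and 12.61. RCA ran from untreated wild type (14.21 ± 0.05) through treated wild type (14.38 ± 0.05) and treated des1 (14.43 ± 0.05) to untreated des1 (14.54 ± 0.02), and no step between neighbours in that order passed limma.

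LHCB4.1 has a pair of sister genes on the array, and under water 1 of the 3 LHCB4 genes fell, 1 rose and 1 did not pass. Of all tested probe sets 22.6% fell and 22.0% rose there. LHCB4.3, which encodes the most diverged isoform of CP29, had 10.58, 10.99 and 11.01 in untreated des1, against 10.24, 10.55 and 10.21 in untreated wild type. These values did not overlap, and LHCB4.3 rose where LHCB4.1 fell (0.53 ± 0.12 SE, limma adjusted p = 0.00172). LHCB4.3 also rose with Na2S in wild type (0.81 ± 0.12, adjusted p = 5.01e-05), where LHCB4.1 did not pass. With Na2S in des1 it passed (0.36 ± 0.12, adjusted p = 0.03), but not after a repeated quantile normalization (adjusted p = 0.0804), nor without replicate 1 of untreated des1 (0.22, adjusted p = 0.167), or replicate 1 (adjusted p = 0.104) or 2 (adjusted p = 0.0518) of treated des1.

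LHCB4.2, the closer relative, had 13.58, 13.38 and 13.42 in untreated des1, against 13.73, 13.64 and 13.68 in untreated wild type. The groups did not overlap, but the difference did not pass (-0.22, interval -0.43 to -0.02, limma adjusted p = 0.0771). It passed without replicate 1 of untreated des1 (-0.28, adjusted p = 0.0368), with array weights (-0.30, adjusted p = 0.00336) and with a trended robust variance (adjusted p = 0.0149). Whether the 3 probe sets read these related transcripts apart was not tested.

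**Figure D3:**
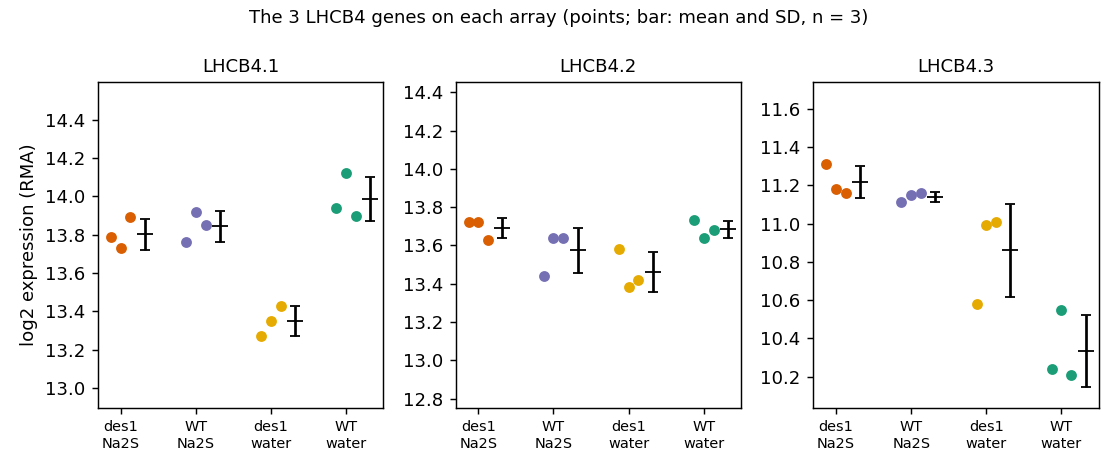
Log2 expression (y axis, a span of 1.7 in each panel) of LHCB4.1, LHCB4.2 and LHCB4.3 on each of the 12 arrays, by group (x axis). Points are single arrays and the black bar is the mean ± SD of 3 arrays. In untreated wild type LHCB4.1 has its highest mean (13.99) and LHCB4.3 its lowest (10.33).

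Around these genes, 23 nuclear photosynthesis genes of the lists used were measured, the 4 included. Most list entries had no probe set listed in the annotation used, among them 18 of 21 antenna and 10 of 12 photosystem I entries. The same held for 13 of 16 photosystem II, 16 of 22 assembly and regulation, and 11 of 15 electron transfer and ATP synthase entries. The counts that follow therefore cover only a part of the pathway. Under water 6 of the 23 rose, 9 fell and 8 did not pass in des1, with a median difference of -0.20, against 0.01 over all tested probe sets. Without the 4 members these counts were 5, 6 and 8 of 19, with a median of -0.10. Thus 57.9% of the 19 were called, beside 44.7% of all tested probe sets.

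Of the other nuclear photosystem genes measured, 1 of 3 passed in untreated des1, where 44.7% of all tested probe sets were called. PSAE-1, a stromal subunit of photosystem I, fell by 0.27 ± 0.10 on the log2 scale (limma adjusted p = 0.0392). That call was lost in both rescalings (adjusted p = 0.0746 and 0.0602), with array weights (0.0514), with the compared arrays alone (0.0564) and without replicate 1 of untreated des1 (adjusted p = 0.158), replicate 3 of treated des1 (adjusted p = 0.0505), or replicate 1 (adjusted p = 0.0655), 2 (adjusted p = 0.116) or 3 (adjusted p = 0.0565) of untreated wild type. PSBY, a small subunit of photosystem II, differed by -0.20 (adjusted p = 0.101), and it passed limma with a trended robust variance (adjusted p = 0.0215). PSB27, a factor of photosystem II repair, differed by -0.10 (adjusted p = 0.48).

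SBPASE and PRK, the other measured genes of the Calvin-Benson list, went the way of RCA. Of 22 entries in that list 3 were used and 19 had no probe set listed. Under water 22.0% of all tested probe sets rose. All 3 measured genes rose in untreated des1: RCA, SBPASE (0.53 ± 0.10 SE, limma adjusted p = 0.000224) and PRK (0.51 ± 0.12, adjusted p = 0.00184), which encode sedoheptulose bisphosphatase and phosphoribulokinase, enzymes that regenerate the acceptor of carbon dioxide. SBPASE (0.59 ± 0.10) and PRK (0.55 ± 0.12) also rose with Na2S in wild type, while in des1 they differed by 0.09 and -0.06 between Na2S and water without passing. These comparisons share arrays, and 15.0% of all tested probe sets rose with Na2S in wild type. For SBPASE (-0.50 ± 0.14, adjusted p = 0.00884) and PRK (-0.61 ± 0.17, adjusted p = 0.00828) the interaction passed, in the direction in which RCA leaned.

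Among factors of assembly and regulation, 1 of 5 rose and 1 fell under water, where 22.0% of all tested probe sets rose and 22.6% fell. CaS, a calcium sensor protein of the thylakoid, rose by 0.75 ± 0.10 (limma adjusted p = 4.5e-06), and it rose with Na2S in wild type by 0.79 ± 0.10. PAM68, an assembly factor of photosystem II, fell in untreated des1 (-0.48 ± 0.13, adjusted p = 0.00669) and with Na2S in wild type (-0.45 ± 0.13, adjusted p = 0.0151). That second call was lost without replicate 3 of untreated wild type (adjusted p = 0.077) or replicate 1 of treated wild type (adjusted p = 0.0692). AT4G01150 (CURT1A, which bends thylakoid membranes) differed by -0.22 (adjusted p = 0.0581), LPA1 by -0.10 and HCF101 by 0.03, the last pair being assembly factors of photosystems II and I. The AT4G01150 difference passed limma without dim probe sets (adjusted p = 0.0366), with a trended robust variance (adjusted p = 0.00943) and with array weights (adjusted p = 0.0169). Of 3 genes of electron transfer and ATP synthase, 1 rose: PGRL1B, of cyclic electron flow (0.50 ± 0.10, adjusted p = 0.000386), whereas the ATP synthase gamma subunit genes ATPC1 (-0.05) and ATPC2 (0.03) did not pass.

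All 4 measured chlorophyll synthesis genes, of 16 in that list, fell under water, where 22.6% of all tested probe sets fell. Their differences lay between -6.40 for PORB (protochlorophyllide reductase) and -0.55 for CHLM (a methyltransferase), with GSA1 at -1.21 and the magnesium chelatase gene CHLI2 at -2.08. In des1 all 4 rose with Na2S, by 0.57 for GSA1 up to 1.53 for PORB, where 17.5% of all tested probe sets rose. In wild type 3 of the 4 fell with Na2S, where 15.4% of all tested probe sets fell, and CHLM, which did not pass, differed by -0.03. CHLM, set beside LHCB4.1 and PSAN after its values were seen, differed by -0.55 between the genotypes under water, 0.07 between them under Na2S and 0.59 for Na2S in des1. Between the genotypes under Na2S 0 of 23 photosynthesis genes passed limma, where 1.40% of all tested probe sets did. An unadjusted p below 0.05 was found for 1 of the 23, and for 2586 of the 22746 tested probe sets.

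**Figure D4:**
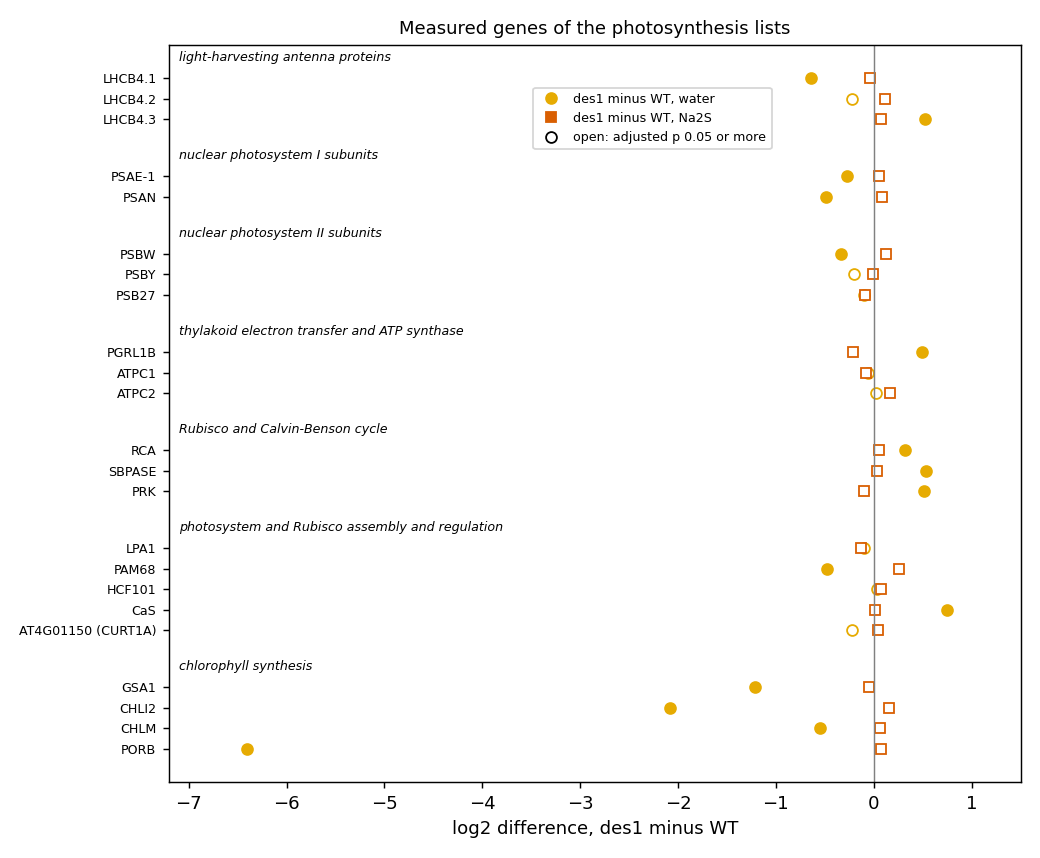
Log2 differences of des1 minus wild type (x axis) for the 23 measured photosynthesis genes, grouped by list (y axis), under water (circles) and under Na2S (squares). Filled symbols passed at an adjusted p below 0.05 and open ones did not. Under water 15 of 23 passed, from PORB at -6.40 to CaS at 0.75, and under Na2S 0 passed.

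The genes most like each member were found by Pearson's r of log2 values over the 12 arrays, which fall into 4 groups, and r is given as a description. LHCB4.1 was followed most closely by AT4G16720 (r = 0.98), AT1G14810 (0.97), AT3G18050 (0.97), AT1G26850 (0.97) and GLC (0.97). PSAN was followed by AT2G34050 (0.96), AT3G23760 (0.95), AT4G26230 (0.95), AT4G25890 (0.95) and AT4G29480 (0.95). For PSBW they were AT2G34530 (0.95), AT5G40020 (0.90), AT4G31030 (0.89), AT1G14310 (0.87) and AT5G57170 (0.87), and for RCA AT3G44630 (0.98), AT3G23160 (0.97), LPR2 (0.96), AT4G00955 (0.96) and AT1G48550 (0.96).

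These lists shared no gene with each other and held 0 of the 19 other photosynthesis genes. Each list held 5 genes drawn from 13513 probe sets of 1 gene, the members left out, so few of those 19 could appear in any case. The 0 is not read as a result about the members. Among the members themselves, r was 0.82 between LHCB4.1 and PSAN, 0.62 between LHCB4.1 and PSBW, 0.65 between PSAN and PSBW, and between -0.81 and -0.62 for RCA with the other 3.

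**Figure D5:**
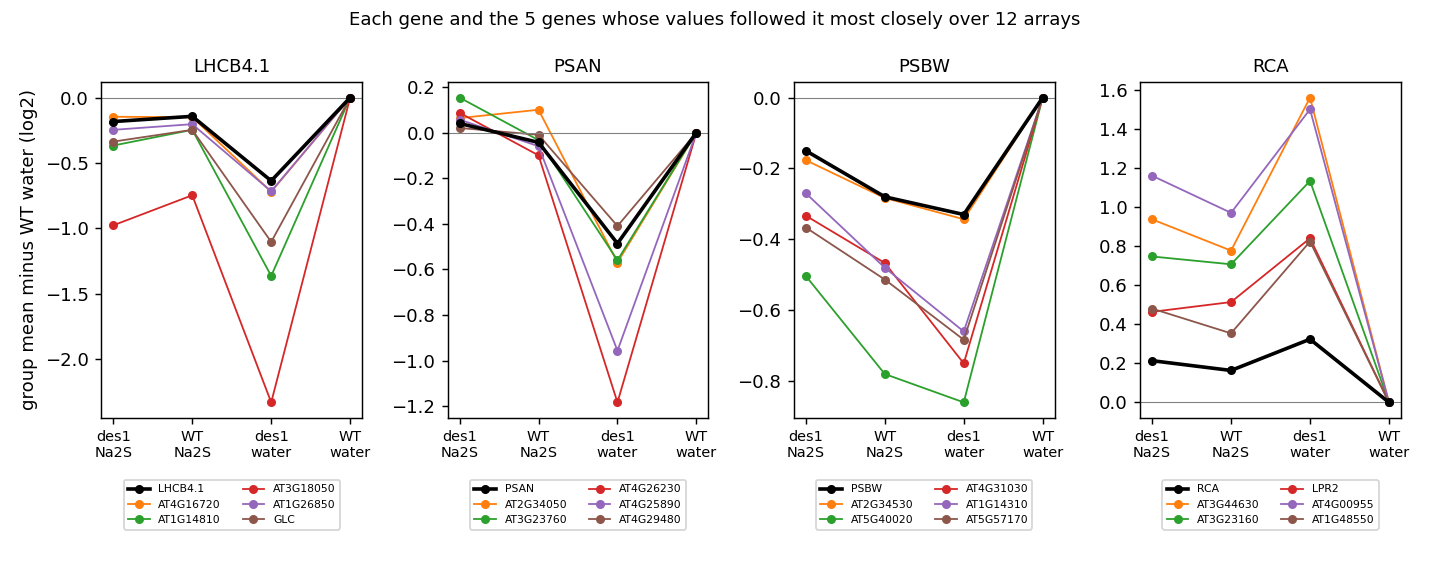
Group means minus that of untreated wild type (y axis, log2, each panel on its own scale) for each of the 4 genes (black) and the 5 genes with the highest Pearson's r to it over 12 arrays (coloured), by group (x axis). For LHCB4.1 and PSAN untreated des1 stands apart at the bottom (-0.64 and -0.49), whereas RCA is above untreated wild type in the other 3 groups.

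Some markers of other cells and some control probe sets moved beside these differences. Of the dividing cell markers 2 of 5 were measured, AUR1 and PRL, and their summed log2 level lay between 6.02 and 6.19 in untreated des1 and between 8.03 and 8.14 in untreated wild type, against 7.06 to 7.29 in treated des1 and 7.40 to 7.44 in treated wild type. Of 6 stomatal lineage markers 3 were measured, SPCH, MUTE and FMA. All 3 fell under water in des1 (-0.60 to -0.30), where 22.6% of all tested probe sets fell. Their sums were 6.32 to 6.53 in untreated des1 and 6.82 to 6.86 in untreated wild type. Under Na2S the sums were 7.03 to 7.07 in des1 and 6.78 to 7.12 in wild type. SPCH and MUTE were dim, below the array median on each of the 12 arrays, so FMA made up most of each sum. The MUTE and FMA calls were lost without single arrays (adjusted p up to 0.131). Of 3 trichome list entries 1 was measured, TRY, which rose under water in des1 by 1.78, where 22.0% of all tested probe sets rose. It had 7.95 to 8.35 in untreated des1 and 6.14 to 6.56 in untreated wild type. Under Na2S it had 8.67 to 8.86 in des1 and 9.03 to 9.13 in wild type. The level of this single gene does not measure the number of trichomes. RMA values do not reach 0, and no epidermal or vascular marker of the lists had a probe set listed in the annotation used.

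Among control probe sets in untreated des1 against untreated wild type, that of the large ribosomal RNA differed by -1.09 ± 0.20 (limma adjusted p = 0.000147), and those of ubiquitin by 1.07 ± 0.12 at the 5′ end and 0.61 ± 0.10 at the 3′ end. Those of GAPDH differed by 0.18 ± 0.14 at the 5′ end and -0.13 ± 0.09 at the 3′ end without passing. The actin probe sets and that of 5S ribosomal RNA (0.07, limma adjusted p = 0.729) did not pass either. Under Na2S the genotypes differed by 0.13 for that ribosomal RNA and by -0.09 for the ubiquitin 5′ end without passing. With Na2S in des1, where LHCB4.1 and PSAN rose, the ribosomal RNA differed by 0.96 (limma adjusted p = 0.000696) and the ubiquitin 5′ end by -0.73 (adjusted p = 6.68e-05). There the ubiquitin 3′ end differed by -0.53 (limma adjusted p = 0.000299) and an actin 3′ probe set by -0.33 (adjusted p = 0.00759). The other actin probe sets did not pass there. The interaction passed for the ribosomal RNA at 1.22 and for the ubiquitin 5′ end at -1.16. With Na2S in wild type the ubiquitin 5′ end differed by 0.43 (adjusted p = 0.00809). The part of cell makeup and RNA quality in the differences of the 4 genes was not tested.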

How the data were processed

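The deposited table holds log2 expression values made by the authors with RMA. The submitters' processing notes name affy too, and its version is not given in the sources used here. Whether all 12 arrays were processed together is not stated there. RMA brings arrays to a shared distribution, so a shift common to most transcripts would be lost. Of 22810 probe sets 64 were controls and 22746 were tested; 13513 had 1 gene in the platform annotation, 503 several and 8730 none listed here. Locus names came from a RefSeq gene table of TAIR10.1, and no coordinates are given.

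limma 3.58.1 (lmFit, eBayes) in R 4.3.3 fitted a mean per group to all 12 arrays, with Benjamini-Hochberg adjustment over all tested probe sets per comparison; control probe sets were read from the same fit with them included. The fit was tested on simulated data. Alternatives were 2 rescalings, no dim probe sets (mean below the 40th percentile), trended robust variance, array weights, the compared arrays alone, a 2-fold minimum, a replicate block, restriction to probe sets annotated to 1 gene, and leaving out each array in turn.

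The members and the 13 gene lists were chosen with earlier results of these data known. Of 151 list entries, given by locus, 29 were used, 120 had no probe set listed and 2 were left out because the tables do not give their fixed symbol. Named genes were the members, the measured genes of the lists, of which 8 or fewer per list had a probe set, and the 5 genes with the highest Pearson's r to each member; the plastid genes named in the closing section fall outside this rule. Summed marker levels are log2 of summed linear values. Same-numbered replicates deviated from their group means with correlations of -0.21 to 0.16, above 0.1 in 1 of 18 pairs, so the numbers were not used to pair samples. Read depth does not apply to arrays.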

Additional observations from a re-analysis of the deposited data

Results flagged for a closer look

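The genotype difference changed with the irrigation, by limma's test of the interaction, for 3 of the 4 genes. Of all tested probe sets 37.7% were called in that test, and 18.6% in the positive direction of these 3. The difference of des1 minus wild type under Na2S minus that under water was 0.60 for LHCB4.1, made up of -0.04 under Na2S and -0.64 under water. It was 0.57 for PSAN, from 0.08 and -0.49, and 0.46 for PSBW, from 0.13 and -0.33. For PSBW it rested on single arrays (adjusted p = 0.0573 without replicate 2 of untreated des1 and 0.0662 without replicate 1 of treated des1).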

How the results depend on the processing

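Over 24 results, the differences of the 4 genes in 6 comparisons, 0 called differences changed sign in any alternative. The falls of LHCB4.1 (-0.68 to -0.57) and PSAN (-0.54 to -0.42) and the rise of RCA (0.25 to 0.35) under water passed in each alternative without a fold minimum. PSBW under water ran from -0.38 to -0.28 when single arrays were left out, and was lost without replicate 2 of untreated des1 (adjusted p = 0.0716). Its interaction ran from 0.37 to 0.52 in those fits, and its Na2S effect in wild type from -0.32 to -0.22. That Na2S effect also passed after repeated quantile normalization (-0.37), without dim probe sets and with trended robust variance (-0.28 in both). RCA passed with trended robust variance for Na2S in wild type (0.16), the interaction (-0.27) and treated des1 against untreated wild type (0.21), and for the last also with median centring (0.28) and array weights (0.20). No difference of the 4 genes reached 2-fold, so a 2-fold minimum removed each call: LHCB4.1 (-0.64 under water, 0.45 for Na2S in des1, 0.60 for the interaction), PSAN (-0.49, 0.53 and 0.57), PSBW (-0.33 under water, 0.46 for the interaction) and RCA (0.32 under water). With it, photosynthesis genes passed in numbers of 3 in place of 15 under water, 2 in place of 8 for Na2S in wild type, 1 in place of 8 for Na2S in des1 and 3 in place of 12 for the interaction. Of all 22746 tested probe sets 1491 passed with that minimum in place of 6919 for Na2S in wild type. For Na2S in des1 1717 passed in place of 8443, and for the interaction 3422 in place of 8573. Under water 3023 of all probe sets passed with that minimum, in place of 10166 of 22746. When only the 13513 probe sets of 1 gene were tested, 5397 passed. Between the genotypes under Na2S these counts were 51 and 134, the latter again of 13513, in place of 318 of 22746. With array weights 838 passed. The replicate block changed no call of the 4 genes (RCA under water 0.32, adjusted p = 0.0118).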

Other observations

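Photosystem subunits encoded in the plastid, which assemble with the nuclear ones described above, were set beside them after the data had been seen. Of 20 measured psa and psb genes 2 rose, 6 fell and 12 did not pass in untreated des1 against untreated wild type, a share called of 40%, where 44.7% of all tested probe sets were called. The genes named here were chosen after their values were seen. psbB and psaA, which encode a core antenna of photosystem II and a reaction centre protein of photosystem I, fell by 1.33 ± 0.18 and 0.84 ± 0.14 on the log2 scale (limma adjusted p = 5.29e-06 and 9.15e-05). psbI and psbK, which encode small subunits of photosystem II, rose by 1.34 ± 0.29 and 0.78 ± 0.23 (limma adjusted p = 0.000895 and 0.00926), with overlapping arrays for psbI. Between the genotypes under Na2S 0 of 20 passed limma, where 1.40% of all tested probe sets did. An unadjusted p below 0.05 was found for 1 of the 20, and for 2586 of the 22746 tested probe sets. The labels describe labelling with a 3′ kit, which starts from poly(A) tails, so values of plastid transcripts may not follow their amounts; this was not tested.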
